A study of Mus musculus with 16 samples.

Results

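The genes described here copy DNA during S phase and make its building blocks. They were listed by name from known roles: 42 mouse genes of the replication fork, of origin licensing, of deoxynucleotide supply and of chromatin assembly behind the fork. Of these, 41 were among the 24543 genes measured, each with a probe well above background on all 16 arrays. Cdc7, the kinase that fires origins, was not measured: its 2 probes were well above background on at most 1 of 16 arrays. The list was chosen with earlier results of these data known. The shares of all genes set beside its counts below are a description and not a test of the list.

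RNA came from colorectal tissue of 16 ApcMin/+ mice at day 28, with 1 array per mouse. ApcMin/+ mice carry a truncating mutation in a copy of Apc, a brake on Wnt signalling, and develop intestinal tumours, and the mice of every group carried it. The 6 5-ASA mice drank 1.5% dextran sulphate sodium (DSS, a polymer that injures the colonic epithelium) for 3 days and were given 5-aminosalicylic acid (5-ASA, an anti-inflammatory drug of ulcerative colitis). The 6 Control mice had the same DSS course and no drug, and the 4 Sham mice drank water alone. The labels disagree on the dosing: their protocol has 5-ASA or saline put into the colorectum for 28 days, while the text on each sample has the mice drink 5-ASA, or (Control) water alone, over the 25 days after DSS. Age, sex and whether tissue was pooled are not given in the sources used here. All 11 epithelial markers on a list were well above background on all 16 arrays.

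Before a cell divides, the origin recognition complex with Cdc6 and Cdt1 loads the replicative helicase onto DNA. GINS joins the helicase when an origin fires, primase and the replicative polymerases synthesise the strands, and the sliding clamp Pcna, opened by replication factor C, holds the polymerases on DNA. Many of these genes are transcribed mainly at the transition into S phase under E2F control, so their RNA marks dividing cells. Which cells of the tissue were dividing was not measured here. In bulk tissue, fewer cells of a type and less RNA per cell cannot be told apart.

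All values are log2 of spot intensity relative to the 75th percentile of the same array, which compares a gene between mice and not one gene with another. The arrays lay on 2 slides, each with 3 5-ASA, 3 Control and 2 Sham mice. The second row of both slides held every 5-ASA mouse and Control 3 and 6, and the first row held Control 1, 2, 4 and 5 and every Sham mouse. The share of spots well above background was 53.0% to 57.7% in the second row and 59.8% to 65.2% in the first. 5-ASA and Sham mice shared no row, so group and row cannot be told apart between them. Nothing in the labels says that the mice came from separate litters or cages, so the p-values measure the spread between these mice.

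The first comparison set Control mice, 25 days after their DSS course, against Sham mice. If Control mice were given saline as the labels' protocol has it, DSS and saline cannot be told apart here. Of the 41 measured members, 39 had a higher mean in Control mice, with a median difference of 0.48 against 0.0077 over all genes tested, where 51.6% were higher. No member passed an adjusted p of 0.05 (limma with Benjamini-Hochberg adjustment over all genes, 0 of 41, against 0.057% of all genes called in either direction), and the adjusted p of the members lay between 0.559 and 0.924. At an unadjusted p under 0.05, 21 members were higher and 0 lower, against 5.64% and 3.24% of all genes. In 18 members every Control mouse lay above every Sham mouse, against 2.71% of all genes. The 18 members came from every role, with 5 of 7 in single-strand binding and lagging strand, 4 of 5 in nucleotide supply, and 1 of 6 in clamp and clamp loader.

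**Figure D1:**
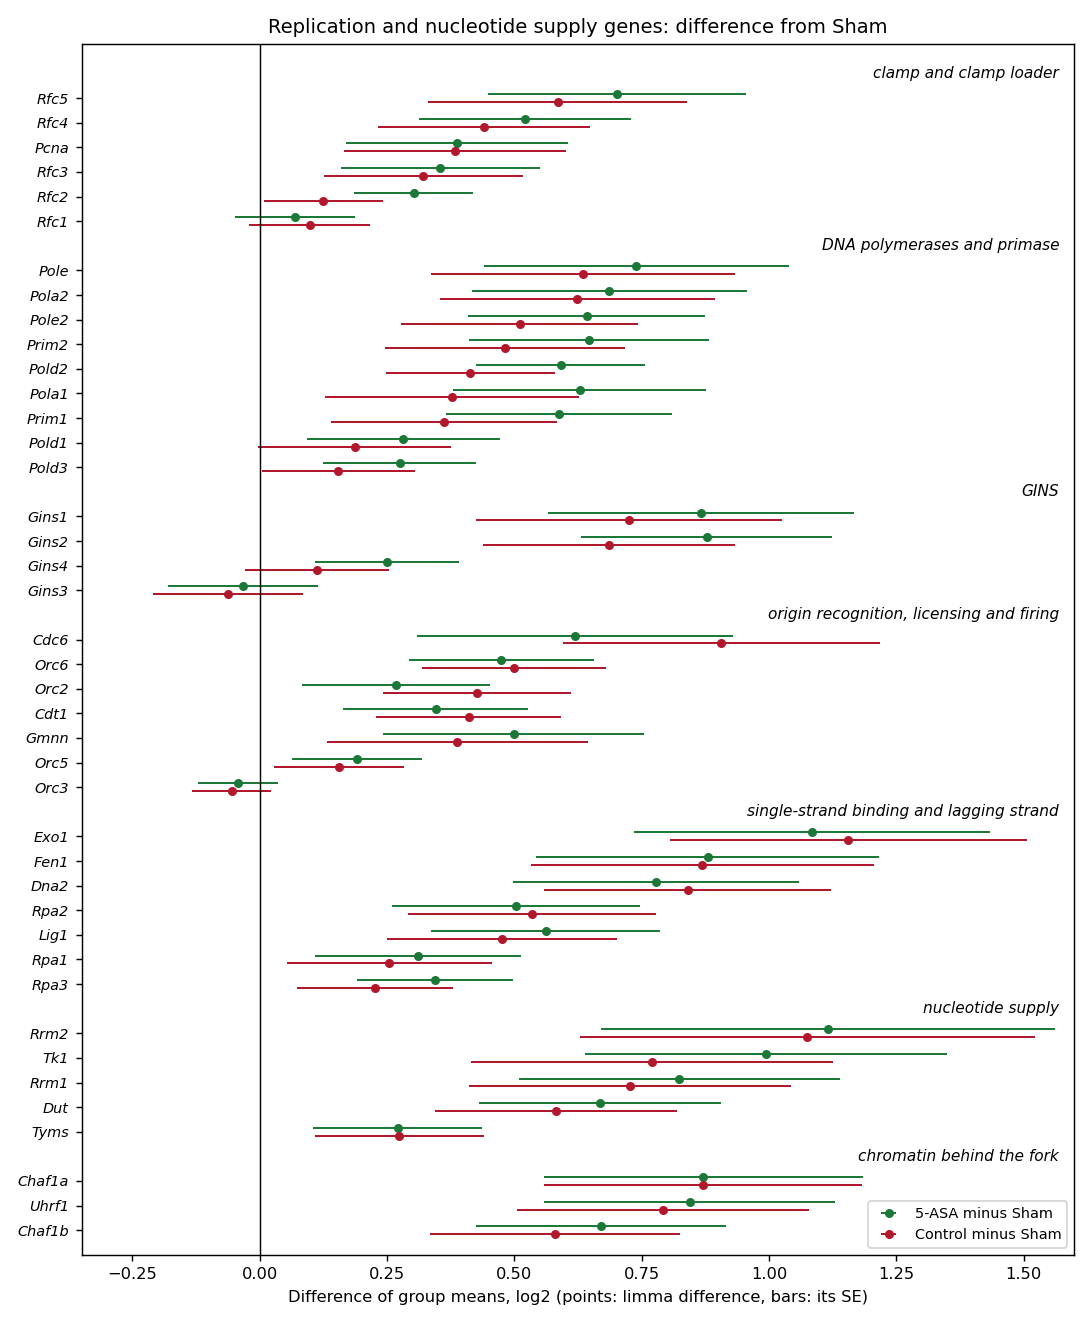
Difference from Sham of each measured member in log2 (x axis), by role down the page, for 5-ASA mice (upper point of each pair, green) and Control mice (lower point, red), with bars of 1 SE from limma. Exo1 and Rrm2 lie furthest right, at 1.08 and 1.12 in 5-ASA and 1.16 and 1.08 in Control mice, while Orc3 and Gins3 lie just left of 0.

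The size of the count depended on single mice. Members at an unadjusted p under 0.05 numbered 8 without Sham 3 (3.14% of all genes higher at that p), 8 without Control 4 (3.89%), 9 without Control 3 (3.62%), 12 without Sham 1 (5.70%) and 13 without Sham 4 (3.99%). The median difference stayed between 0.38 and 0.52 whichever mouse was left out. It was 0.47 within slide 1 and 0.44 within slide 2, where 0 and 9 members passed the unadjusted p (1.74% and 4.49% of all genes higher). It was 0.46 with the row of the array as a covariate, where 8 passed (2.39% of all genes higher). Among the 4 Control and 4 Sham mice of the first row it was 0.46 and 27 passed (4.36% of all genes higher), but there the groups lay in different columns of the slide, and group and column cannot be told apart. With only the 6 Control and 4 Sham mice in the fit, 27 passed (7.23% of all genes higher). The lowest adjusted limma p of the members was then 0.364.

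Nucleotide supply genes were among those furthest apart. Rrm2, the small subunit of ribonucleotide reductase that limits deoxynucleotide production in S phase, had a lowest, median and highest value of 1.00, 2.04 and 3.61 in 5-ASA mice and of 1.51, 1.96 and 3.18 in Control mice, against 1.22, 1.23, 0.95 and 1.02 in the 4 Sham mice. Every Control mouse lay above every Sham mouse, and the lowest 5-ASA mouse lay within the Sham range. The mean of Rrm2 was 2.18 ± 0.70 in the 6 Control mice (SD) and 1.11 ± 0.14 in the 4 Sham mice, a difference of 1.08 (SE 0.45) or 2.11-fold, with an unadjusted limma p of 0.0291 and an adjusted p of 0.559. Its probe lies at chr12:25398824-25398883 (mm9, per the file headers).

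Rrm1, the large subunit that carries the catalytic site, ran at 1.52, 2.32 and 3.35 (lowest, median, highest) in 5-ASA and 1.85, 2.14 and 2.83 in Control mice, against 1.59, 1.69, 1.35 and 1.60 in Sham mice. Tk1, the thymidine kinase of the salvage route, ran at 1.74, 2.62 and 3.60 in 5-ASA and 1.97, 2.32 and 3.07 in Control mice, against 1.70, 1.86, 1.30 and 1.95 in Sham mice. Dut, which removes dUTP before it can be built into DNA, ran at 0.74, 1.28 and 2.20 in 5-ASA and 0.99, 1.26 and 1.65 in Control mice, against 0.82, 0.77, 0.56 and 0.67 in Sham mice. In each of these genes the lowest Control mouse lay above the highest Sham mouse, if only just for Tk1, and 5-ASA overlapped with Sham. The differences of Control from Sham were 0.73 (SE 0.32) for Rrm1, 0.77 (SE 0.36) for Tk1 and 0.58 (SE 0.24) for Dut. Tyms, which makes thymidylate from deoxyuridylate, ran at -2.01, -1.81 and -1.36 in 5-ASA and -1.92, -1.88 and -1.10 in Control mice, against -2.15, -1.87, -2.04 and -2.07 in Sham mice. Here the groups overlapped, the difference of Control from Sham was 0.27 (SE 0.17), and a single mouse, Control 3, gave the value of -1.10: without it the difference was 0.14.

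On the lagging strand, Exo1, the exonuclease of mismatch repair and end resection, had the smallest p of all members. Its lowest, median and highest values were -0.80, 0.17 and 1.34 in 5-ASA and -0.22, 0.22 and 1.06 in Control mice, against -0.74, -0.65, -0.98 and -0.99 in Sham mice. Control and Sham mice did not overlap, and the means of 0.32 ± 0.52 (SD) over 6 Control mice and -0.84 ± 0.17 over 4 Sham mice differed by 1.16 (SE 0.35) or 2.23-fold, with an unadjusted limma p of 0.00483 and an adjusted p of 0.559. The probe is at chr1:177838682-177838741 (mm9). Fen1, which cuts the displaced flaps of Okazaki fragments, ran at 1.83, 2.78 and 3.93 in 5-ASA and 2.41, 2.76 and 3.45 in Control mice, against 2.09, 2.24, 1.65 and 1.99 in Sham mice. Dna2, the nuclease and helicase for long flaps, ran at -2.39, -1.58 and -0.52 in 5-ASA and -1.85, -1.57 and -0.97 in Control mice, against -2.21, -2.16, -2.58 and -2.28 in Sham mice. Lig1, which seals the nicks, ran at 2.47, 3.04 and 3.70 in 5-ASA and 2.73, 2.90 and 3.47 in Control mice, against 2.44, 2.50, 2.54 and 2.60 in Sham mice. None of these genes had a Control mouse inside the Sham range, and each had a 5-ASA mouse inside or below it. Control exceeded Sham by 0.87 (SE 0.34) for Fen1, 0.84 (SE 0.28) for Dna2 and 0.48 (SE 0.23) for Lig1. The subunits of the single-strand binding protein RPA, Rpa1, Rpa2 and Rpa3, were higher in Control by 0.25 (SE 0.20), 0.53 (SE 0.24) and 0.23 (SE 0.15). Of these, the Rpa2 probe sits at the edge of the array, in spot row 376 of 384.

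**Figure D2:**
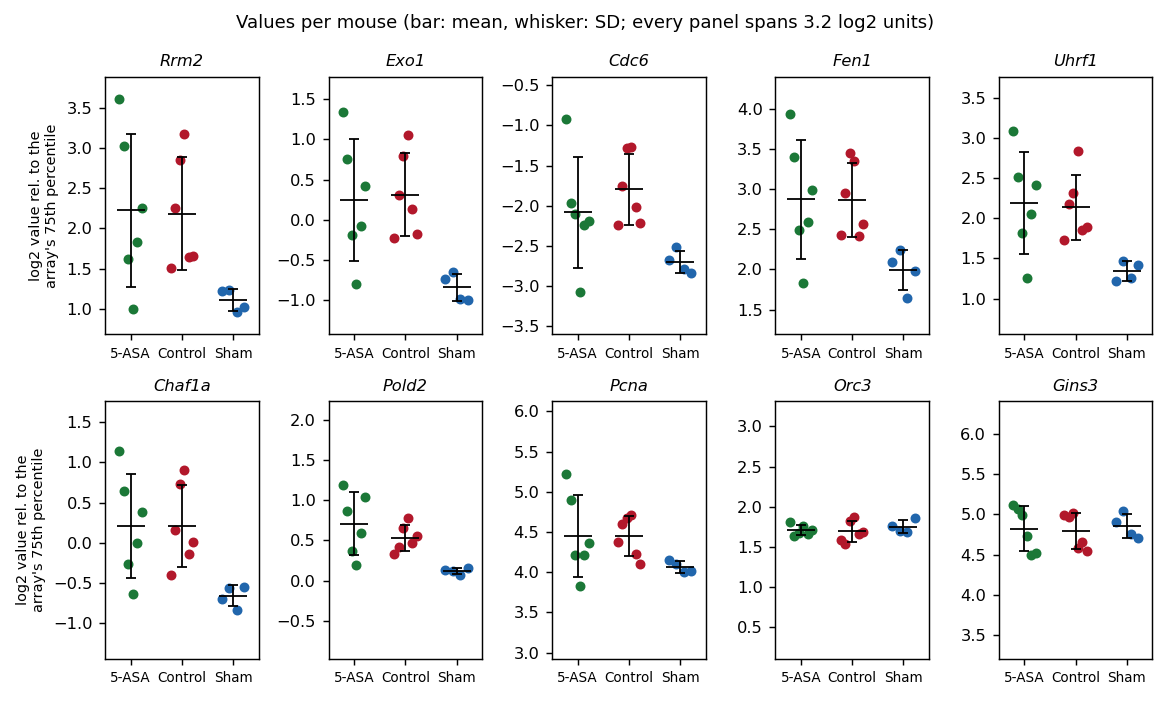
Log2 value relative to the array's 75th percentile (y axis) of each mouse, for 10 members, with 5-ASA at the left, Control in the middle and Sham at the right of each panel; bars are means, whiskers SD, and every panel spans the same range. Control mice lie above all Sham mice for Rrm2, Exo1, Cdc6, Fen1, Uhrf1, Chaf1a and Pold2 but not for Pcna, and the groups coincide for Orc3 and Gins3.

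Of the genes that prepare origins, Cdc6, which joins the origin recognition complex to load the helicase, ran at -3.08, -2.14 and -0.93 in 5-ASA and -2.25, -1.88 and -1.27 in Control mice, against -2.67, -2.52, -2.79 and -2.83 in Sham mice. The Control and Sham ranges were separate, with a difference of 0.91 (SE 0.31) or 1.87-fold, while the lowest of all mice was a 5-ASA mouse. Its second kept probe gave 0.82 for Control against Sham. Cdt1, the partner of Cdc6 in helicase loading, ran at 2.27, 2.68 and 3.26 in 5-ASA and 2.52, 2.75 and 3.17 in Control mice, against 2.24, 2.43, 2.26 and 2.68 in Sham mice. Gmnn, the geminin that inhibits Cdt1 once S phase has begun, ran at 0.18, 0.43 and 1.45 in 5-ASA and 0.14, 0.59 and 0.99 in Control mice, against 0.32, -0.07, 0.08 and 0.40 in Sham mice. Both overlapped between Control and Sham, with differences of 0.41 (SE 0.18) and 0.39 (SE 0.26).

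In the origin recognition complex, Orc6, its smallest subunit, ran at 1.32, 1.76 and 2.39 in 5-ASA and 1.55, 1.70 and 2.26 in Control mice, against 1.26, 1.39, 1.29 and 1.27 in Sham mice, so that no Control mouse reached down to Sham and the difference was 0.50 (SE 0.18). Orc2, a core subunit, was higher in Control by 0.43 (SE 0.18) and Orc5, another core subunit, by 0.16 (SE 0.13). Orc3, the core subunit that pairs with Orc2, averaged 1.71 ± 0.07 (SD) in the 6 5-ASA mice, 1.70 ± 0.13 in the 6 Control mice and 1.75 ± 0.08 in the 4 Sham mice. Its difference of Control from Sham was -0.05 (SE 0.08), and the mean over its 2 kept probes gave 0.04.

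GINS is a ring of proteins in the helicase. Gins1 ran at -0.86, 0.05 and 1.00 in 5-ASA and -0.46, -0.16 and 0.64 in Control mice, against -1.02, -0.66, -0.85 and -0.60 in Sham mice. Gins2 ran at -0.49, 0.21 and 0.69 in 5-ASA and -0.37, -0.15 and 0.45 in Control mice, against -0.74, -0.72, -0.85 and -0.64 in Sham mice. In both, all Control mice lay above all Sham mice, and for Gins2 all 5-ASA mice did too. The differences of Control from Sham were 0.73 (SE 0.30) and 0.69 (SE 0.25). The other subunits of the same ring differed little: Gins4 by 0.11 (SE 0.14) and Gins3 by -0.06 (SE 0.15), with Gins3 means of 4.82 ± 0.28 (SD) over the 6 5-ASA mice, 4.79 ± 0.22 over the 6 Control mice and 4.85 ± 0.15 over the 4 Sham mice. The difference between the subunits was not tested.

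All 9 polymerase and primase genes were higher in Control, 3 of them at an unadjusted p under 0.05 (Pola2, Pold2 and Pole2). Pola1, the catalytic subunit of the polymerase that starts each strand, ran at 0.06, 0.56 and 1.48 in 5-ASA and 0.12, 0.52 and 0.79 in Control mice, against -0.05, 0.23, 0.10 and 0.18 in Sham mice. Prim1, the catalytic subunit of primase, ran at 1.71, 2.17 and 3.02 in 5-ASA and 1.82, 2.03 and 2.37 in Control mice, against 1.62, 1.78, 1.59 and 1.83 in Sham mice. Both overlapped between Control and Sham, and their differences were 0.38 (SE 0.25) and 0.36 (SE 0.22). Pola2 and Prim2, the partners of these catalytic subunits, differed by 0.62 (SE 0.27) and 0.48 (SE 0.24).

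Pole, the catalytic subunit of the leading strand polymerase epsilon, ran at 0.52, 1.33 and 2.09 in 5-ASA and 0.81, 1.19 and 1.83 in Control mice, against 0.82, 0.74, 0.21 and 0.76 in Sham mice. The groups touched, with a Control mouse just under the highest Sham mouse, and the difference was 0.63 (SE 0.30), from a probe in spot row 383 of 384. Its accessory subunit Pole2 differed by 0.51 (SE 0.23) without overlap. Of the lagging strand polymerase delta, Pold2, an accessory subunit, ran at 0.19, 0.73 and 1.19 in 5-ASA and 0.33, 0.51 and 0.78 in Control mice, against 0.13, 0.12, 0.07 and 0.15 in Sham mice. The Sham mice lay so close together (SD 0.04) that every mouse of both DSS groups was above them, although Control exceeded Sham by no more than 0.41 (SE 0.17). That SE comes from 1 estimate of the spread shared by the 3 groups. The SD of Pold2 was 0.39 in 5-ASA and 0.16 in Control mice. The catalytic subunit Pold1 and the accessory subunit Pold3 differed by 0.19 (SE 0.19) and 0.15 (SE 0.15), and Pold1 by 0.01 without Sham 1.

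The clamp and its loader gave the lowest median of the roles, 0.35. Pcna ran at 3.83, 4.29 and 5.22 in 5-ASA and 4.10, 4.49 and 4.71 in Control mice, against 4.15, 4.10, 4.01 and 4.01 in Sham mice. The highest Sham mouse overlapped with the lowest Control mouse, and the difference was 0.38 (SE 0.22). Rfc4, a small subunit of the clamp loader, ran at 1.54, 2.06 and 2.69 in 5-ASA and 1.75, 1.90 and 2.41 in Control mice, against 1.56, 1.57, 1.53 and 1.65 in Sham mice, and was the only gene of this role without overlap between Control and Sham. The differences of Control from Sham were 0.44 (SE 0.21) for Rfc4, 0.58 (SE 0.25) for Rfc5, 0.32 (SE 0.20) for Rfc3, 0.12 (SE 0.12) for Rfc2 and 0.10 (SE 0.12) for the large subunit Rfc1.

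Behind the fork, chromatin assembly factor 1 deposits histones on new DNA, and Uhrf1 recruits the maintenance methyltransferase to hemimethylated sites. Chaf1a, the large subunit of the factor, ran at -0.63, 0.19 and 1.14 in 5-ASA and -0.40, 0.08 and 0.91 in Control mice, against -0.69, -0.56, -0.83 and -0.56 in Sham mice. Uhrf1 ran at 1.26, 2.23 and 3.09 in 5-ASA and 1.73, 2.04 and 2.84 in Control mice, against 1.22, 1.47, 1.26 and 1.42 in Sham mice. Control mice lay above Sham mice throughout for both genes, by 0.87 (SE 0.31) for Chaf1a and 0.79 (SE 0.29) for Uhrf1, and Chaf1b, the middle subunit, differed by 0.58 (SE 0.25).

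The promoters of members at both ends of this range are shown because E2F factors bind close to the starts of many replication genes. Windows of 300 bases, from 250 before to 50 after the gene's start (RefSeq, GRCm38.p6), were found for 34 of the 42 members, and the first listed window of a gene was used. The letters TTTNNCGC, an E2F-type sequence searched on both strands, occurred in 12 of 34 member windows (35.3%), against 5.27% of the windows of 27025 genes and 1047 of the 10402 genes whose window held at least 13 CG pairs, the lower quartile of the members. CCAAT, the letters of an NF-Y box, occurred in 16 member windows (47.1%) against 37.9% of all windows, and TTTGAA, the letters of a cell cycle homology region, in 3 (8.82%) against 18.1%. Among the windows with at least 13 CG pairs, CCAAT occurred in 36.4% and TTTGAA in 8.89%. None of the 3 motifs contains another. Windows holding TTTNNCGC belonged to 12 measured members with a median difference of Control from Sham of 0.35, and windows without it to 21 with a median of 0.50. These medians leave out the members without a window. They are Exo1 (1.16, the largest difference), Gins1 (0.73), Gins2 (0.69), Pole (0.63), Prim2 (0.48), Gmnn (0.39), Rfc2 (0.12) and Gins4 (0.11). Capitals below mark TTTNNCGC or its reverse complement. Cdc6 and Dna2, higher in Control, hold it, and so do Orc3 and Gins3, which did not differ by more than their SE. Rrm2 and Chaf1a, also higher in Control, have no such letters in this window. In Orc3 and Gins3 the first base of the match lies 41 bases before the start, in Dna2 92 and in Cdc6 138. The windows are at chr11:98907901-98908200 for Cdc6 and chr10:62946779-62947078 for Dna2 (plus strand), chr4:34614893-34615192 for Orc3 (minus strand), and chr8:95633309-95633608 for Gins3, chr12:24708004-24708303 for Rrm2 and chr17:56040166-56040465 for Chaf1a (plus strand). A match is a description of these letters and not of a bound site.
Cdc6: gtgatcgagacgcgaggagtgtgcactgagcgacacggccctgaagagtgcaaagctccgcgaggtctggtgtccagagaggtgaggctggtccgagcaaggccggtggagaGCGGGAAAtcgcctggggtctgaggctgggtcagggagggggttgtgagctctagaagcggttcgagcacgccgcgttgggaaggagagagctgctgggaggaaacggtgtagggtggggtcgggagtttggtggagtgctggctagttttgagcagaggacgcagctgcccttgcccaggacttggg
Dna2: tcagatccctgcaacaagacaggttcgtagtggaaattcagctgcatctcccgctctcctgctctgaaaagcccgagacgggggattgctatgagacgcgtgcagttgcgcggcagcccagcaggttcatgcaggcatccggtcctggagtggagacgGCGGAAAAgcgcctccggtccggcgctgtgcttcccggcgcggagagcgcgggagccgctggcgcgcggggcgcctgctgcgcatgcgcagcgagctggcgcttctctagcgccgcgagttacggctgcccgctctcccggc
Orc3: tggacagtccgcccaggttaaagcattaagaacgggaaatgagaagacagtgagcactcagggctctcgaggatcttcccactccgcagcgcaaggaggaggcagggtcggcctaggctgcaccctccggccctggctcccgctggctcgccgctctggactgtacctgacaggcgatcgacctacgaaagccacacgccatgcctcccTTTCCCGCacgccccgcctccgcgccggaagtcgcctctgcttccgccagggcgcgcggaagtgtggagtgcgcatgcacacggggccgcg
Gins3: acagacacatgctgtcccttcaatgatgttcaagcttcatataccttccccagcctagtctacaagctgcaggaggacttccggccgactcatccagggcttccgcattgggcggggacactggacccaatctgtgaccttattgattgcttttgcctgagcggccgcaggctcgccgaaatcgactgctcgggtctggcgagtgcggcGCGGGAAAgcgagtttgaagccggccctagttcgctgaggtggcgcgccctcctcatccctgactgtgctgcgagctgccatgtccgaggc
Rrm2: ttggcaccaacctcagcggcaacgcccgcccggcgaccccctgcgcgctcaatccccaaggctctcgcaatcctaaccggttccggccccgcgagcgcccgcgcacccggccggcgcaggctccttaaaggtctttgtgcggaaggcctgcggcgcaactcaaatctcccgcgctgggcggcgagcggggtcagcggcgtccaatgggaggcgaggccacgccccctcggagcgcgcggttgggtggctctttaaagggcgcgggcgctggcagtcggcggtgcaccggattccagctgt
Chaf1a: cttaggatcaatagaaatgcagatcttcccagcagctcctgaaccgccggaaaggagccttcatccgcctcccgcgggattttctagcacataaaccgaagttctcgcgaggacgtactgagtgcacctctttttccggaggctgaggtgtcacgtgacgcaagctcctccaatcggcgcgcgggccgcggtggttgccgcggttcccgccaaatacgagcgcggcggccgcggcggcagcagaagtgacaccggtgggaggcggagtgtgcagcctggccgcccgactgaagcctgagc

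Genes of the same pathway outside the 42 were described from lists of known roles, also chosen with earlier results of these data known. Among 33 other replication factors, which include the Mcm helicase, 31 were higher in Control than in Sham mice, 19 at an unadjusted p under 0.05, with a median of 0.52. The helicase subunit Mcm2 differed by 0.63 and Topbp1, which helps to activate origins and the checkpoint kinase ATR, by 0.59. The other enzymes of nucleotide supply differed less, with 25 of 31 higher, 8 at that p, and a median of 0.18, with the purine synthesis enzyme Atic at 0.35. Of 28 genes of E2F, Rb and the control of G1 to S, 23 were higher and 10 passed that p, with a median of 0.21, Skp2, a ubiquitin ligase subunit that targets p27, at 0.63 and Tfdp1, the dimer partner of E2F, at 0.45. All 20 mitosis genes were higher, 8 at that p, with a median of 0.70, and Aurka, a spindle kinase, and Top2a, which untangles chromosomes, both at 0.94. Of these genes, 0 passed the adjusted p of 0.05.

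Markers of other cells were measured beside these genes. The median difference of Control from Sham over 11 epithelial markers was 0.04, and the level over that list (each gene centred over the 16 arrays, then averaged over genes) ran between -0.0073 and 0.087 in Control and between -0.15 and 0.10 in Sham mice. The 10 B cell markers were all lower in Control, with a median of -1.05, and the list level ran between -1.44 and 2.65 in Control and between -1.79 and 2.66 in Sham mice. The 5 measured of 7 germinal centre markers had a median of -0.28, and their level ran between -0.49 and 1.27 in Control and between -0.45 and 1.34 in Sham mice. The median was 0.91 for the 6 measured of 10 erythroid markers and -0.31 for the 10 smooth muscle markers. Of 9 fibroblast markers 8 were lower in Control, 3 of them at an unadjusted p under 0.05, with a median of -0.37, and the lowest levels over that list were -0.65 in Control 3 and -0.51 in Control 4. Of the 8 measured of 10 T cell markers 7 were lower in Control, with a median of -0.42. Of 10 crypt base and Wnt markers, 4 were higher and 6 lower in Control, with a median of -0.042. Of 13 reference genes, 11 were higher in Control, with a median of 0.10. The part of any of these in the results for the replication genes was not tested.

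The second comparison asked whether 5-ASA altered the colon after DSS, in 5-ASA against Control mice. No difference was detected: 0 of 41 members passed the adjusted p (limma, each at 0.999 or above; 0% of all genes called), 0 passed an unadjusted p under 0.05 (4.05% of all genes in either direction), and 0 had groups without overlap (0.0163% of all genes above and 0.122% below). The mean was higher in 5-ASA for 32 of 41 members, against 49.6% of all genes, with a median difference of 0.08 and a range from -0.29 to 0.25. The SE of these differences ran from 0.07 to 0.40. The comparison shares the Control mice with the first one.

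The smallest p belonged to Rfc2, a small subunit of the clamp loader, at 1.67, 2.06 and 2.22 in 5-ASA and 1.71, 1.77 and 2.14 in Control mice, against 1.66, 1.66, 1.73 and 1.81 in Sham mice. The difference of 5-ASA from Control was 0.18 (SE 0.10). Pold2 followed at 0.18 (SE 0.15) and Prim1 at 0.23 (SE 0.20), and all 3 overlapped between the groups. Pola1 gave the highest difference and Cdc6 the lowest, -0.29 (SE 0.28), and the second kept probe of Cdc6 gave 0.25. Over the 11 members with more than 1 kept probe, the probes shared a sign in 5 for 5-ASA against Control, in 10 for Control against Sham and in 10 for 5-ASA against Sham.

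The direction of the small median was not the same on the slides. Within slide 1, 38 of 41 members were higher in 5-ASA than in Control mice, with a median of 0.33 (49.7% of all genes), and within slide 2, 6 of 41 were, with a median of -0.15 (45.7% of all genes). Prim1 differed by 0.47 within slide 1 and by -0.02 within slide 2, and Cdc6 by 0.10 and -0.67. In the test of the difference between slides, 0 members passed the adjusted p, the lowest being 0.808, and 0 passed an unadjusted p under 0.05. Of all genes, 1 was called, and at the unadjusted p 1.64% had a lower and 3.62% a higher difference in slide 2. Single mice moved the median as well: it was -0.04 without 5-ASA 1, -0.0083 without 5-ASA 2 and 0.19 without 5-ASA 4. Within the second row of the slides, 25 of 41 members were higher in the 6 5-ASA mice than in Control 3 and 6. The median was 0.061, against -0.0036 over all genes. There 0 members passed an unadjusted p under 0.05, against 3.50% of all genes higher and 3.09% lower. The share of all genes higher by any amount was not counted for that row.

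**Figure D3:**
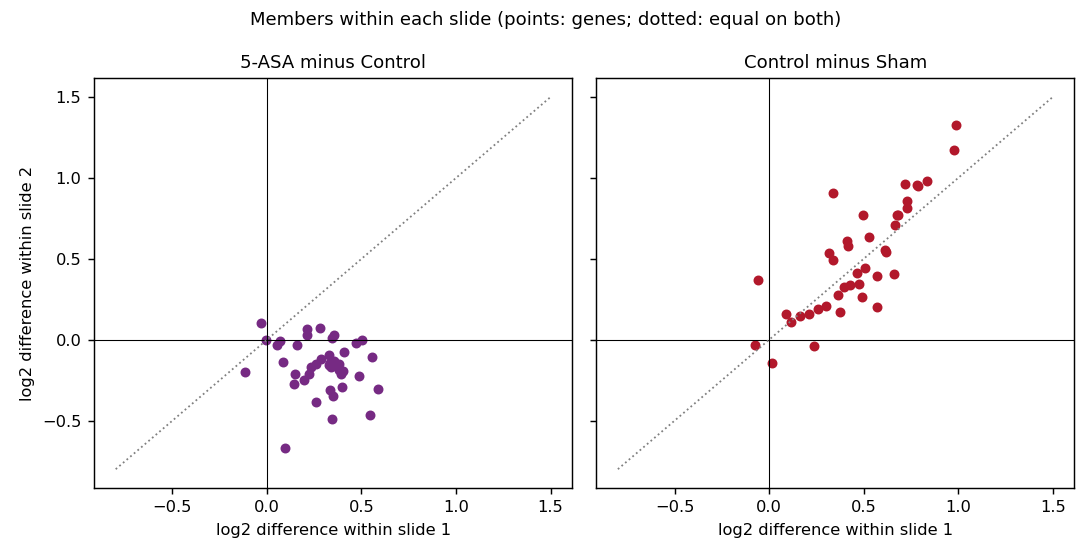
Log2 difference of each of the 41 members within slide 2 (y axis) against that within slide 1 (x axis), for 5-ASA minus Control at the left and Control minus Sham at the right; the dotted line marks equal differences. For 5-ASA minus Control most points lie right of 0 and below 0 (medians 0.33 and -0.15), and for Control minus Sham most lie above 0 on both slides (medians 0.47 and 0.44).

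Of the 33 other replication factors, 22 were higher in 5-ASA than in Control mice and 0 passed an unadjusted p under 0.05, with Rnaseh2a, the catalytic subunit of the RNase that removes ribonucleotides from DNA, at 0.15 and the origin subunit Orc4 at -0.08. Of the other nucleotide supply enzymes, 12 of 31 were higher and 19 lower, with a median of -0.024, and Ppat, which commits to purine synthesis, differed by -0.32 and Impdh2, of guanine nucleotide synthesis, by 0.14. In the E2F and G1 list, 16 of 28 genes were higher and 12 lower, with a median of 0.03. At an unadjusted p under 0.05, 1 was higher and 1 lower. The genes with the smallest p were Rbl2, a pocket protein of quiescent cells, at 0.36 and Cdkn1a, the inhibitor p21, at -0.44. All 20 mitosis genes had a higher mean in 5-ASA, with a median of 0.33, the motor protein Kif20a at 0.47 and the midzone protein Prc1 at 0.46, and 0 passed an unadjusted p under 0.05. Among cell type markers, all 6 erythroid genes were lower in 5-ASA (median -1.46), 4 at an unadjusted p under 0.05, against 2.64% of all genes lower. All 10 B cell genes (median -0.97), all 8 T cell genes (-0.19) and all 8 macrophage genes (-0.14) were lower too. All 10 smooth muscle genes (median 0.40), all 10 enteric neuron and glia genes (0.24) and 8 of 9 fibroblast genes (0.24) were higher. Their part in the replication results was not tested.

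The third comparison set 5-ASA against Sham mice, which shares its groups with both others. Again 39 of 41 members had a higher mean in 5-ASA (51.4% of all genes), with a median of 0.59 against 0.0063 over all genes, and 0 passed the adjusted p (0.057% of all genes in either direction). At an unadjusted p under 0.05, 25 were higher, against 6.14% of all genes, but groups without overlap were few: 3 members, Pold2, Gins2 and Orc2, against 1.06% of all genes. Rrm2 was higher by 1.12 (SE 0.45), Exo1 by 1.08 (SE 0.35), Tk1 by 0.99 (SE 0.36), Gins2 by 0.88 (SE 0.25) and Pold2 by 0.59 (SE 0.17), the last with an unadjusted limma p of 0.00286 and an adjusted p of 0.347. With the row of the array as a covariate, the median was 0.51 and 0 members passed the unadjusted p, against 0.913% of all genes higher. 5-ASA and Sham mice shared no row, so this fit separates group from row only through the Control mice, which lay in both rows. With so few genes passing in that fit, the count of 0 cannot decide whether the members differed. Over the 10 B cell markers the median was -1.95, with 9 lower at an unadjusted p under 0.05 (4.71% of all genes lower), and over the 11 epithelial markers it was 0.01.

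The means of 30 members ran 5-ASA above Control above Sham, those of 9 ran Control above 5-ASA above Sham, and those of Orc3 and Gins3 ran Sham above 5-ASA above Control. In none of the 41 did the neighbours 5-ASA and Control differ at an unadjusted p under 0.05. Within slide 1, 38 of the 41 were higher in 5-ASA than in Control, and within slide 2, 6 were. The share of all genes with each order was not counted.

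The spread between mice was described as well as the means. The SD between mice was largest in 5-ASA, intermediate in Control and smallest in Sham mice for 34 of 41 members (82.9%), against 23.4% of all genes. The median SD of the members was 0.51 in 5-ASA, 0.30 in Control and 0.14 in Sham mice, while that of all genes was 0.23, 0.24 and 0.21 in the same groups. Rrm2 had the highest SD in 5-ASA and Control mice, 0.96 and 0.70, and an SD of 0.14 in Sham mice. Pola1, Prim1 and Pcna had an SD in 5-ASA of 0.59, 0.54 and 0.51, against 0.26, 0.20 and 0.25 in Control and 0.12, 0.12 and 0.07 in Sham mice. Orc2 went the other way between the DSS groups, with 0.21 in 5-ASA and 0.42 in Control mice, and Orc3 had the lowest SD in 5-ASA, 0.07. The 33 other replication factors had the same order in 24 (72.7%). The median SD of the mitosis genes was 0.75 in 5-ASA, 0.39 in Control and 0.41 in Sham mice, and in Sham it rested on Sham 3: without that mouse, left out after seeing the data, it was 0.21, against 0.13 for the members. The SDs rest on 6, 6 and 4 mice, and their differences were not tested. All 5-ASA mice lay in the second slide row and all Sham mice in the first, so group and row cannot be told apart. The same mice lay at the ends of their group in most members, so the members are not separate observations of the spread.

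**Figure D4:**
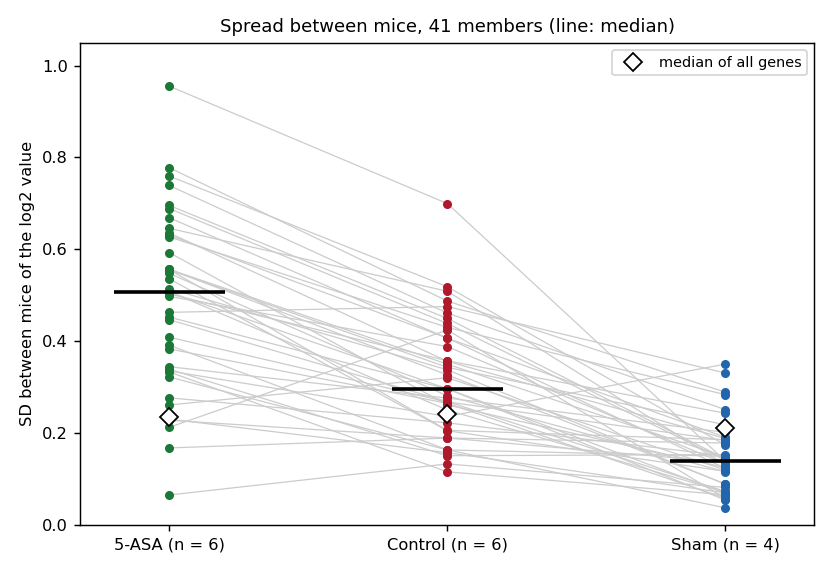
SD between mice of the log2 value (y axis) for each of the 41 members in 5-ASA, Control and Sham mice, with grey lines joining a gene across groups, black lines at the median of the members and open diamonds at the median of all genes. The member medians are 0.51, 0.30 and 0.14, while the diamonds are nearly level at 0.23, 0.24 and 0.21.

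The same mice lay at the ends of their group in most members. The level over the members (each gene centred over the 16 arrays, then averaged over the 41 genes) was 0.80, 0.53, -0.17, -0.42, -0.05 and 0.27 in 5-ASA 1 to 6. It was -0.17, 0.09, 0.38, 0.51, -0.10 and -0.12 in Control 1 to 6 and -0.42, -0.31, -0.47 and -0.34 in Sham 1 to 4. By this level all Control mice lay above all Sham mice, and 5-ASA mice lay on both sides of Control, with 5-ASA 4 inside the Sham range. 5-ASA 1 was the highest 5-ASA mouse in 35 members (85.4%, against 26.0% of all genes). It was the highest of all 16 mice in 32, for which the share of all genes was not counted. 5-ASA 4 was the lowest 5-ASA mouse in 34 members (82.9%, against 19.2% of all genes), and Control 4 the highest Control mouse in 34 (82.9%, against 21.5%).

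Set against the mean of the Sham mice, 5-ASA 1 was higher by a median of 1.26 over the members and above every Sham mouse in 39 of 41. 5-ASA 2 and 5-ASA 6 were above every Sham mouse in 38 members each, Control 4 in 38 and Control 3 in 37. 5-ASA 4 was above every Sham mouse in 5 members, with a median difference from the Sham mean of -0.04. The other 5-ASA mice, 3 and 5, did so in 24 and 29 members, and Control 1, 2, 5 and 6 in 25, 33, 30 and 26. The lowest of all 16 mice was a Sham mouse in 33 members, a 5-ASA mouse in 7 and a Control mouse in 1. For the counts in this paragraph the share of all genes was not counted, so they describe the members alone.

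**Figure D5:**
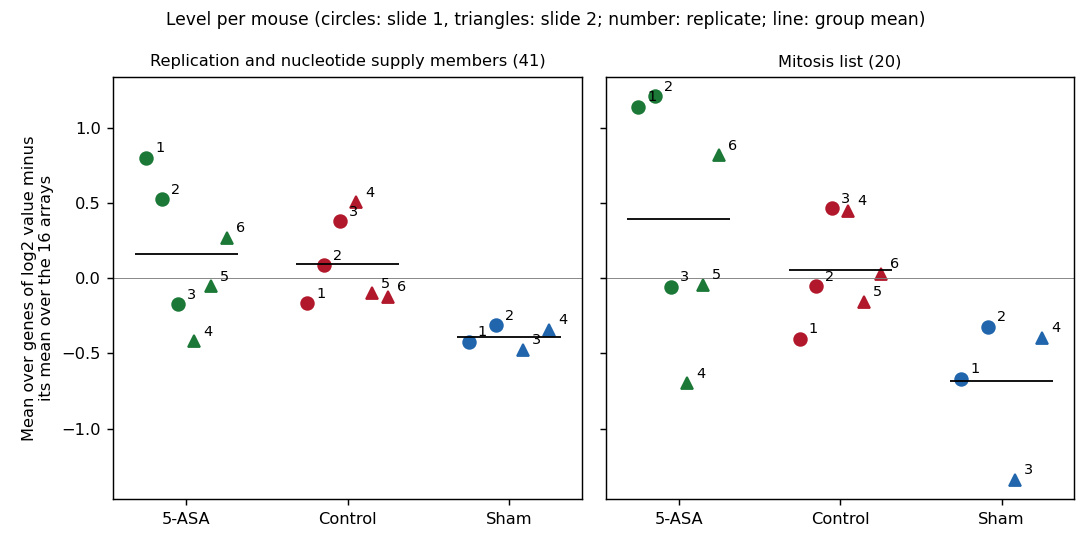
Level per mouse (y axis, log2 values centred per gene over the 16 arrays and averaged over genes) for the 41 members at the left and the 20 mitosis genes at the right, in 5-ASA, Control and Sham mice; numbers are replicates, circles slide 1, triangles slide 2 and lines group means. Sham mice lie within -0.47 to -0.31 for the members and between -1.34 and -0.32 for the mitosis genes, and 5-ASA mice span -0.42 to 0.80 and -0.70 to 1.21.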

How the data were processed

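Agilent scanner files of 16 arrays were used, 1 per mouse. Per the file headers, Feature Extraction 10.10.1.1 had subtracted background from the spot intensity and detrended it, with no scaling across arrays; mean spot and local background intensity are uncorrected, and flags of 0 or 1 are another deposited column. The deposited table of 55821 probes states no scale; it matched log2 intensity shifted per array and centred on the Sham median of each probe (largest absolute Sham median 5e-07, r at least 0.998 for differences from Sham 1), so scale, centring and direction of these deposited log2 values are inferred. Column medians were 0.223, 0.177, 0.135, 0.136, 0.112 and 0.111 for 5-ASA 1 to 6, -0.0322, -0.0616, 0.206, -0.187, -0.0429 and 0.146 for Control 1 to 6, and -0.000903, -0.0459, 0.0704 and -0.0065 for Sham 1 to 4.

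Here log2 of the processed intensity minus the 75th percentile of the array was taken without control and outlying spots, and spots of a probe were averaged. Of 55681 probes, 27656 were named by accession through the RefSeq table (GRCm38.p6, used for names and promoters; 1711 symbols updated) and 28025 kept the file's name; probe positions are those of mm9, per the file headers. A probe was kept if 4 or more of 16 arrays flagged it well above background (35087 probes), and the brightest kept probe stood for its gene. 0 spots were saturated. The tests used limma 3.58.1 (R 4.3.3) in 1 model of the 3 groups without covariates, with Benjamini-Hochberg adjustment over 24543 genes. On simulated data for Control against Sham (24473 genes fitted), 67% of 100 genes with a true log2 difference of 1 and 89% of 100 with 2 were called, as were 10 of 24273 unchanged genes. The changed genes were drawn from all genes, with independent noise and the same spread in every group. The median SE over all genes was 0.16 in the real data, against 0.35 for Exo1 and 0.45 for Rrm2. These shares therefore do not give the chance of calling a member.

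The members and the 19 gene lists were chosen with earlier results of these data known. Every member is named by its role; values by mouse are given for 20 listed members and the 3 with the smallest p in each comparison; of the 4 pathway lists, the 2 genes with the smallest p in Control against Sham and in 5-ASA against Control are named, except 1 that is not reported here. Alternatives covered background correction, scaling, the probe filter, probe choice, the outer 12 spot rows, slide, array row, replicate number, the deposited table, the groups in the fit and each mouse left out. The number of arrays limits the precision.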

Additional observations from a re-analysis of the deposited data

Results flagged for a closer look

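In 6 of 126 sets of values (41 members and their level, in 3 groups), the most extreme mouse lay further from its nearest neighbour than Dixon's 95% limit allows. Chance gives about 1 in 20 such sets. Control 4 was the highest Control mouse for Pold1 at 2.54, against 2.05 in the next, and Sham 1 the lowest Sham mouse for the same gene at 1.37, against 2.0. Sham 3 was the lowest Sham mouse for Pole at 0.21, against 0.74, and for Orc2 at -2.44, against -2.33, and the highest for Rpa2 at -0.79, against -1.02. Control 3 was the highest Control mouse for Tyms at -1.10, against -1.86. The probes of Pole and Rpa2 are those of the members closest to the edge of the array, in spot rows 383 and 376 of 384.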

How the results depend on the processing

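No member was called in any of the 3 comparisons under the alternatives run, except without a filter on dim probes. There 2 of 41 members passed for 5-ASA against Sham, beside 3271 of all 34947 genes then tested. The 2 were Gins2 at 0.88 and Pold2 at 0.59, both at an adjusted limma p of 0.0486. Members at an unadjusted p under 0.05 for Control against Sham numbered 12 under median scaling (2.97% of all genes higher at that p), 0 within slide 1 (1.74%) and 9 within slide 2 (4.49%). They numbered 8 with the array row as a covariate (2.39%), 13 with the replicate block (6.30%) and 27 with the 2 groups alone (7.23%). With a mouse left out they ran from 8 (3.14% without Sham 3) to 26 (7.33% without 5-ASA 1). Only Control mice lay in both rows, which limits the row fit for 5-ASA against Sham. For that comparison members at an unadjusted p under 0.05 numbered 1 within slide 2 (2.88%) and 0 with the row (0.913%). With a mouse left out they ran from 18 (4.38% without 5-ASA 1) to 33 (8.52% without 5-ASA 4). For 5-ASA against Control they numbered 0 to 1. The median for 5-ASA against Control was -0.15 within slide 2 and between -0.042 and 0.19 when leaving out a mouse. Same-numbered mice did not all deviate together (r from -0.213 to 0.607 over 14 pairs, 8 over 0.1), so the numbers were not taken as pairs. All genes called for Control against Sham numbered 1 with probes bright on all 16 arrays, 0 without the outer spot rows, 4 within slide 1, 1 within slide 2, 1 within a row and 7 with the 2 groups alone. For 5-ASA against Sham they numbered 2 with probes bright on all 16 arrays, 3271 without the filter, 0 without the outer rows, 2 within slide 1, 4 within slide 2 and 8 with the row. Leaving out a mouse gave 11 to 23 for 5-ASA against Sham and 10 to 16 for Control against Sham. Between 5-ASA and Control they numbered 2937 without the filter, which adds probes near background, 1 within slide 2 and 7 with the row. Directions turned as follows. For Control against Sham, Orc3 gave 0.035 over both probes, Gins3 0.017 within slide 1 and 0.064 with the replicate block, Orc5 -0.060 within slide 1 and Rfc1 -0.040 within slide 2. For 5-ASA against Sham, Gins3 gave 0.086 within slide 1, 0.095 with the block and from -0.092 to 0.034 when leaving out a mouse (above 0 without Sham 2, 5-ASA 5 or 5-ASA 6), Orc5 -0.093 within slide 1, Rfc1 -0.18 within slide 2 and Tyms -0.11 with the row. For 5-ASA against Control, 8 members turned within slide 1 and 26 within slide 2; of the 4 followed singly (Rfc2, Pold2, Prim1 and Cdc6), Cdc6 gave 0.096 within slide 1 and Prim1 -0.019 within slide 2. The cause of these moves was not tested. Without the outer spot rows Rpa2 had no probe, and 40 members were measured.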
